A study of Homo sapiens with 10 samples.

Results

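The 34 genes described here are ATF4, genes that ATF4 is known to induce, and genes of the endoplasmic reticulum (ER) stress response that the XBP1 and ATF6 factors control. They were chosen by gene symbol from a list that was fixed with earlier results of these data known. All 34 were present among the 64940 genes of the deposited expression table. ATF4 and its targets made up 25 of them (the ATF4 arm), and the sensors, factors and targets of the XBP1 and ATF6 branches made up the other 9 (the XBP1 and ATF6 arm). The RNA libraries, 2 control and 2 oeDAZL, were made from derivatives of H9, a human embryonic stem cell line. The control libraries carry the genotype wt and are labelled as SD cells that were spontaneously differentiated. The oeDAZL libraries, whose genotype and treatment labels both read oeDAZL (overexpressed DAZL, a germ cell RNA-binding protein), are labelled hPGCLCs (human primordial germ cell-like cells). The series' own design text calls both groups PGCLCs, so any difference in culture between the groups and the effect of DAZL cannot be told apart. For overexpression, the study's methods describe differentiation with BMP4 and BMP8a and transduction with lentivirus. The labels of these 4 libraries name neither the BMPs, nor a virus, nor a time point. The remaining 6 samples of the series are miRNA libraries and were not analysed here.

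ATF4 is the transcription factor of the integrated stress response. Kinases that sense amino acid shortage, misfolded protein in the ER, viral RNA or lack of heme phosphorylate the initiation factor eIF2, which lowers translation in general and raises translation of the ATF4 mRNA. ATF4 then induces genes of amino acid synthesis and transport, one-carbon metabolism and feedback. In the ER, IRE1 (gene ERN1) splices the XBP1 mRNA and ATF6 is cut by proteases in the Golgi, and both produce factors that induce chaperones and degradation genes. Gene-level mRNA values record neither translation of ATF4, nor XBP1 splicing, nor ATF6 cleavage, so these steps were not measured here.

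The DNA elements that these factors are known to bind are shown first, since the comparison rests on which factor controls which gene. Promoters of 300 bases, from 250 bases before the transcription start to 50 after it, were taken from RefSeq (GRCh38.p14) and were found for 28 of the 34 members (19 of the ATF4 arm and all 9 of the XBP1 and ATF6 arm). The 6 others were ALDH1L2, EIF4EBP1, NUPR1, PSPH, SHMT2 and SLC7A11. Both strands were searched for the C/EBP-ATF response element (CARE, TGATGCAA), for its form with 1 free base (TGATGNAA, which includes the first), for ERSE (CCAAT, 9 free bases, CCACG), for ERSE-II (ATTGG, 1 free base, CCACG) and for the XBP1 and ATF6 core (TGACGTG). The 4 stretches that follow hold the CARE matches of the ATF4 arm that lie before the start, in the sense of the gene, with the match in capitals. A match on the opposite strand reads as its reverse complement.
CEBPG: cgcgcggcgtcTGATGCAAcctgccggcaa
JDP2: atagccggggcTGATGCAAcccgtccc
CHAC1: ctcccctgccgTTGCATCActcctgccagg
ASNS: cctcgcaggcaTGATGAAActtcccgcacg

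These are chr19:33374060-33374089 (plus strand) for CEBPG, chr14:75427995-75428021 (plus strand) for JDP2, chr15:40953251-40953280 (plus strand) for CHAC1 and chr7:97872458-97872487 (minus strand) for ASNS. The CEBPG and JDP2 stretches touch no exon of GENCODE 44, whereas the CHAC1 stretch lies under an exon of 1 alternative CHAC1 transcript and the ASNS stretch under exons of 3 alternative ASNS transcripts. The ASNS match has the free base of the wider form. SLC3A2 also held the wider form, 37 to 44 bases after the start. TGATGCAA was found for 3 of the 19 ATF4-arm genes against 0.866% of all 35114 promoters, and TGATGNAA for 5 of 19 against 3.62%. Members were counted as genes with a match in any of their promoters, whereas the 35114 promoters belong to 27303 gene symbols. A gene with several promoters had several chances, so these shares differ in unit.

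In the XBP1 and ATF6 arm, 6 of the 9 genes held an ERSE or an ERSE-II, against none of the 19 of the ATF4 arm. The share of all promoters, counted per promoter and not per gene, was 0.131%. Both arms were made up of genes known to be controlled by the factors that bind these elements. Their motif shares against all promoters therefore test nothing. The next 6 stretches show the ERSE and ERSE-II matches, again in the sense of the gene and with the matches in capitals.
CALR: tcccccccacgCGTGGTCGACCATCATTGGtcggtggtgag
CRELD2: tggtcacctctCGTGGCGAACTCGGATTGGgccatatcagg
XBP1: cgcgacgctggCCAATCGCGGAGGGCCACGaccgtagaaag
SDF2L1: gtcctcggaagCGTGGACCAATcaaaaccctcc
HERPUD1: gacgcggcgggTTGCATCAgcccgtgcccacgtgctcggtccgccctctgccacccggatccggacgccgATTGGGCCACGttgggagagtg
HYOU1: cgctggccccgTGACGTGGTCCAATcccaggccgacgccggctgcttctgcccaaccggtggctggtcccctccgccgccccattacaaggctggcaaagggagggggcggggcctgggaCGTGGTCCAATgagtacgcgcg

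The stretches are chr19:12938373-12938413 (plus) for CALR, chr22:49918543-49918583 (plus) for CRELD2, chr22:28800592-28800632 (minus) for XBP1, chr22:21642103-21642135 (plus) for SDF2L1, chr16:56931955-56932046 (plus) for HERPUD1 and chr11:119057263-119057404 (minus) for HYOU1. Only the XBP1 stretch touches an annotated exon, that of 1 alternative XBP1 transcript. HERPUD1 was the 1 member with elements of both kinds: its first capitals are a CARE and its second an ERSE-II. HYOU1 held 2 ERSE-II elements, the first of which overlaps a TGACGTG, and no other member held TGACGTG, which 1.97% of all promoters held. ERSE alone was found in 0.0769% and ERSE-II in 0.0541% of all promoters. PDIA4, ATF6 and ERN1 held neither. A match is a description of these letters in this window and not evidence of binding.

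Expression is given in TPM (transcripts per 1000000, scaled for transcript length and summing to the same total in each library). Levels may therefore be compared between genes of a library. Between libraries a TPM is a share of that total, so differences depend on the scaling. Median-of-ratios scaling, over genes above 0 in every library, gave factors of 1.06 and 1.02 for control and 0.966 and 0.973 for oeDAZL. DAZL, the overexpressed gene, had 0 and 0.0333 TPM in control and 102 and 101 TPM in oeDAZL, which matches the labels. TPM keep no record of read number, so the depth was unknown and no counting interval can be given. Genes of the mitochondrial genome took 12.6% to 14.1% of the TPM, with both oeDAZL libraries above both control libraries. Over the table as a whole levels were slightly lower in oeDAZL: of the 16687 genes with a mean of at least 1 TPM, 65.3% lay below control, with a median difference of -0.078 on the log2(TPM + 1) scale. All differences are oeDAZL minus control on that scale, which understates the change of low genes, and they were tested with limma across all 16687 genes. The labels do not say that the 2 libraries of a group came from separate cultures, so p-values measure the spread between these libraries.

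Among the 33 members tested, 9 were lower and 1 was higher in oeDAZL at an unadjusted P of at most 0.05. Across all tested genes 15.2% were lower and 5.02% were higher by the same rule. The 9 were PHGDH, PSAT1, SHMT2, ALDH1L2, ASNS, SLC7A11, CHAC1, STC2 and HERPUD1, and the 1 was CEBPB. In that group of 9, 4 genes belong to serine and one-carbon metabolism and 3 to asparagine synthesis, cystine import and glutathione breakdown. The study's methods ask for a fold change of at least 2 together with an unadjusted P of at most 0.05. On the log2(TPM + 1) scale no member passed both, which 0.563% of all genes passed as lower and 0.126% as higher. On the group means of the deposited TPM, with no pseudocount, ALDH1L2 passed both, as did 1.79% of all genes as lower and 0.354% as higher, so the pseudocount decided that call. The study's own count-based test reported more genes at these thresholds between control and oeDAZL cells. The shares given here do not stand for its counts. No member passed a Benjamini-Hochberg adjusted p of 0.05 over all genes in limma either (0.0599% of all genes did), and the smallest adjusted p of a member was 0.0885. An exact permutation test of 2 against 2 libraries cannot go below p = 0.33 for any single gene.

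**Figure D1:**
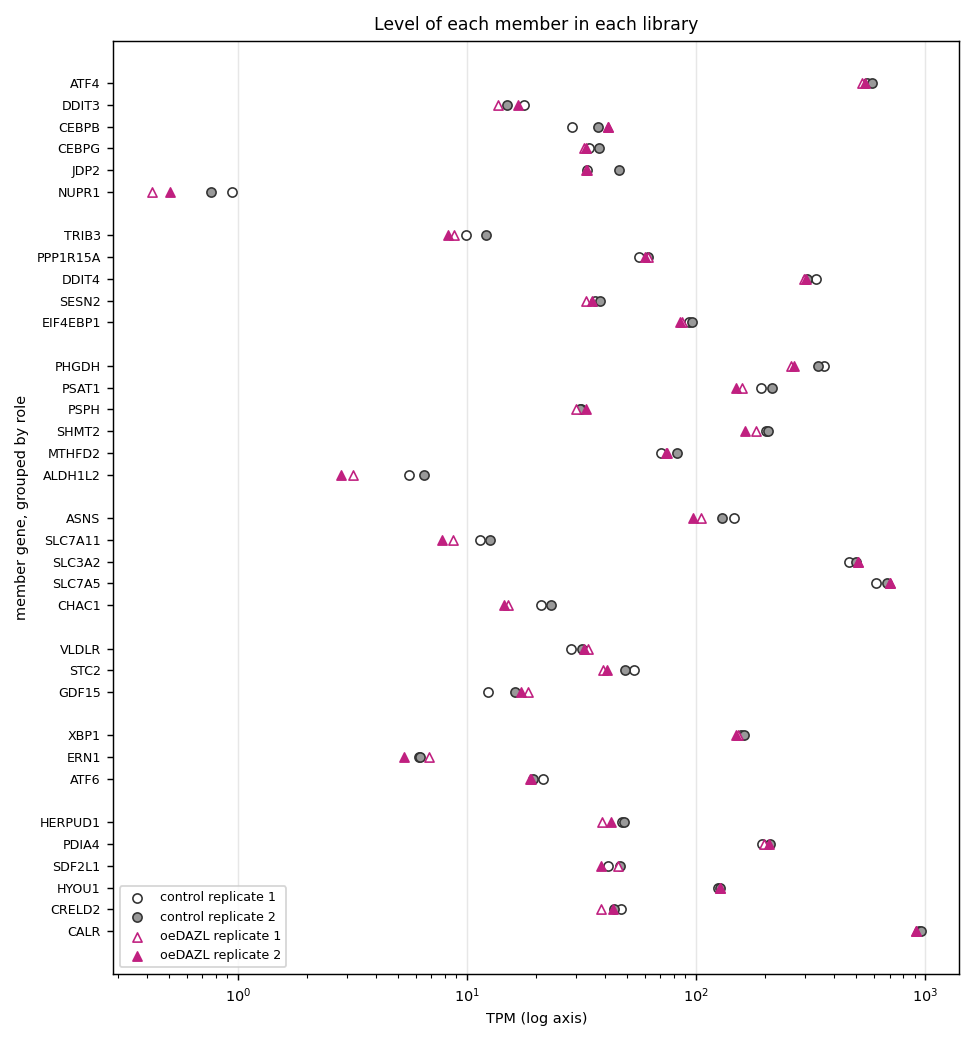
Level of each of the 34 members in TPM on a log axis, grouped by role from the transcription factors at the top to the ER folding genes at the bottom, with circles for the 2 control libraries and triangles for the 2 oeDAZL libraries. NUPR1, with 0.421 to 0.946 TPM, is the lowest and CALR, with 914 to 960 TPM, the highest, and the separation between circles and triangles is widest for ALDH1L2 among the tested genes.

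The first 2 of the 3 enzymes of serine synthesis were lower in oeDAZL. PHGDH, which makes the first committed step from a glycolytic intermediate towards serine (chr1:119648411-119744218 in GENCODE 44), had 362 and 343 TPM in control and 261 and 267 TPM in oeDAZL. Both oeDAZL values lay below both control values, with a mean at 74.9% of control, and PHGDH had the lowest p-value of the members. The log2 difference was -0.42 ± 0.055 (SE, n = 2 libraries per group; limma, unadjusted P = 0.000236, adjusted p = 0.0885). PSAT1, the aminotransferase of the next step (chr9:78297125-78330093), was at 192 and 215 TPM in control and at 159 and 150 TPM in oeDAZL. Its groups did not overlap either, with a log2 difference of -0.39 ± 0.072 (unadjusted P = 0.00145, adjusted p = 0.0896 in limma). PSPH, the phosphatase that completes the pathway, did not follow: it was at 31.5 and 31.2 TPM in control and at 29.9 and 33.3 TPM in oeDAZL. The groups of PSPH overlapped, and the interval of its log2 difference ran from -0.19 to 0.21.

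Serine feeds one-carbon units into mitochondria through SHMT2, MTHFD2 and ALDH1L2, and these 3 genes differed from each other. SHMT2, which splits serine to glycine and a one-carbon unit, was at 203 and 206 TPM in control and at 183 and 164 TPM in oeDAZL. Its log2 difference was -0.24 ± 0.067 (limma, unadjusted P = 0.0116, adjusted p = 0.154). It no longer passed with the TPM scaled by median of ratios (limma, unadjusted P = 0.113) or without oeDAZL replicate 2 (limma, unadjusted P = 0.127). MTHFD2, the next enzyme, was at 70.7 and 82.5 TPM in control and at 74.6 and 73.8 TPM in oeDAZL, with the oeDAZL values between the control values. ALDH1L2, which oxidises the one-carbon unit to carbon dioxide (chr12:105019784-105107643), was at 5.57 and 6.51 TPM in control and at 3.17 and 2.82 TPM in oeDAZL. The oeDAZL mean of ALDH1L2 was 49.6% of the control mean, the lowest share of the 33 tested members, with a log2 difference of -0.82 ± 0.16 (limma, unadjusted P = 0.00237, adjusted p = 0.0989). It is also among the members of lowest level, and fold changes of low genes are held down by the pseudocount of 1.

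Among the 5 genes of amino acid supply and glutathione, 3 were lower at an unadjusted P of at most 0.05, against 15.2% of all genes, and 2 were not. ASNS, asparagine synthetase and a textbook ATF4 target whose wider CARE is printed among the promoter stretches (chr7:97851677-97872542), was at 146 and 130 TPM in control and at 105 and 97.4 TPM in oeDAZL. The groups were separate, with a log2 difference of -0.44 ± 0.077 (limma, unadjusted P = 0.00111, adjusted p = 0.0896). CHAC1, which breaks down glutathione and holds an exact CARE (chr15:40952962-40956512), was at 21.0 and 23.3 TPM in control and at 15.1 and 14.5 TPM in oeDAZL. The oeDAZL mean was 66.8% of the control mean, with a log2 difference of -0.55 ± 0.097 (limma, unadjusted P = 0.00122, adjusted p = 0.0896).

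SLC7A11, the cystine importer, was at 11.5 and 12.6 TPM in control and at 8.70 and 7.77 TPM in oeDAZL. The groups were separate, with a log2 difference of -0.50 ± 0.12 (limma, unadjusted P = 0.00618, adjusted p = 0.123), and without oeDAZL replicate 2 the unadjusted P was 0.0525. SLC3A2, the heavy chain that SLC7A11 and SLC7A5 share as a partner, was at 465 and 498 TPM in control and at 511 and 510 TPM in oeDAZL. SLC7A5, the importer of large neutral amino acids, was at 610 and 681 TPM in control and at 706 and 701 TPM in oeDAZL. Both oeDAZL values lay above both control values for each of these 2 genes, opposite to SLC7A11, but neither passed the test on TPM as deposited. In limma the log2 difference of SLC3A2 was 0.084 (unadjusted P = 0.180) and that of SLC7A5 was 0.13 (unadjusted P = 0.103). With median-of-ratios scaling both passed (limma, unadjusted P = 0.0343 and 0.0319). The pseudogenes SLC7A5P1, at 6.26 to 10.0 TPM, and SLC7A5P2, at 0.184 to 4.54 TPM, are close copies of SLC7A5. The study's methods kept uniquely mapped reads only, so reads that fit SLC7A5 and a copy equally well would not be counted.

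The secreted and surface members went in both directions. STC2, a secreted glycoprotein, was at 53.9 and 49.3 TPM in control and at 39.1 and 40.7 TPM in oeDAZL, a log2 difference of -0.36 ± 0.076 (limma, unadjusted P = 0.00294, adjusted p = 0.104). GDF15, a stress-induced cytokine of the TGF-beta family, was at 12.4 and 16.3 TPM in control and at 18.5 and 17.2 TPM in oeDAZL (log2 difference 0.31, unadjusted P = 0.0741). VLDLR, a lipoprotein receptor, was at 28.6 and 31.7 TPM in control and at 33.8 and 32.5 TPM in oeDAZL (log2 difference 0.13, unadjusted P = 0.163). For GDF15 and VLDLR both oeDAZL values were above both control values, the reverse of STC2, and with median-of-ratios scaling both passed the unadjusted test (limma, unadjusted P = 0.0429 and 0.0477).

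ATF4 itself was among the most abundant members and differed little between the groups. It was at 557 and 588 TPM in control and at 532 and 546 TPM in oeDAZL (chr22:39519695-39522683). Both oeDAZL values lay just below both control values, and the log2 difference of -0.087 (95% interval -0.22 to 0.043, limma unadjusted P = 0.153) was close to the median of all genes and turned to 0.014 with median-of-ratios scaling. Its processed copy ATF4P3 was at 1.02 to 2.82 TPM.

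Among the factors that act with or after ATF4, CEBPB had a higher mean in oeDAZL and the others a lower one. None of the lower ones passed the unadjusted test, and 65.3% of all tested genes lay below control. DDIT3 (CHOP), the factor of ER stress-induced cell death, was at 17.7 and 14.9 TPM in control and at 13.7 and 16.6 TPM in oeDAZL, with overlapping groups and an interval from -0.43 to 0.23. CEBPB was at 28.7 and 37.4 TPM in control and at 41.5 TPM in both oeDAZL libraries. It was the only member higher at an unadjusted P of at most 0.05, with a log2 difference of 0.33 ± 0.13 (limma, unadjusted P = 0.0373, adjusted p = 0.220). Without control replicate 1, its lower control, the log2 difference was 0.15 (limma, unadjusted P = 0.0933).

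CEBPG, a partner of ATF4 with an exact CARE at its start, was at 34.3 and 37.8 TPM in control and at 32.4 and 33.2 TPM in oeDAZL (log2 difference -0.13, unadjusted P = 0.152). JDP2, a repressor of the same factor family with an exact CARE, was at 33.5 and 46.0 TPM in control and at 33.3 and 33.4 TPM in oeDAZL, so only control replicate 2 stood apart. Of the 4 ATF4-arm genes whose CARE is printed, ASNS and CHAC1 passed the unadjusted test as lower, as did 15.2% of all genes. CEBPG and JDP2 did not, nor did SLC3A2, whose wider CARE lies after the start. HERPUD1 of the other arm, with an exact CARE, passed as lower. Whether the element goes with the difference was not tested. NUPR1, a small stress-induced cofactor, was at 0.946 and 0.760 TPM in control and at 0.421 and 0.508 TPM in oeDAZL, under the minimum for testing.

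None of the 5 feedback and growth-control genes of the ATF4 arm passed the unadjusted test. TRIB3, a pseudokinase that restrains ATF4, was at 9.89 and 12.2 TPM in control and at 8.79 and 8.27 TPM in oeDAZL (log2 difference -0.33 ± 0.14, unadjusted P = 0.0514). EIF4EBP1, a brake on cap-dependent translation, was at 92.9 and 96.5 TPM in control and at 86.6 and 85.6 TPM in oeDAZL (log2 difference -0.14, unadjusted P = 0.0558). Both oeDAZL values lay below both control values for each gene, as in 38.4% of all genes. On TPM as deposited both genes were just outside the unadjusted threshold. With median-of-ratios scaling the log2 differences of TRIB3 and EIF4EBP1 were -0.24 and -0.036 (limma, unadjusted P = 0.149 and 0.595).

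PPP1R15A (GADD34), which directs dephosphorylation of eIF2, was at 56.3 and 61.8 TPM in control and at 61.7 and 59.7 TPM in oeDAZL, with overlapping groups. DDIT4 and SESN2 both lower mTORC1 activity. DDIT4 was at 333 and 304 TPM in control and at 296 and 303 TPM in oeDAZL, and SESN2 was at 36.1 and 38.1 TPM in control and at 33.2 and 35.2 TPM in oeDAZL. The log2 differences of these 3 genes were 0.041, -0.086 and -0.11, and that of DDIT4 turned to 0.015 with median-of-ratios scaling.

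**Figure D2:**
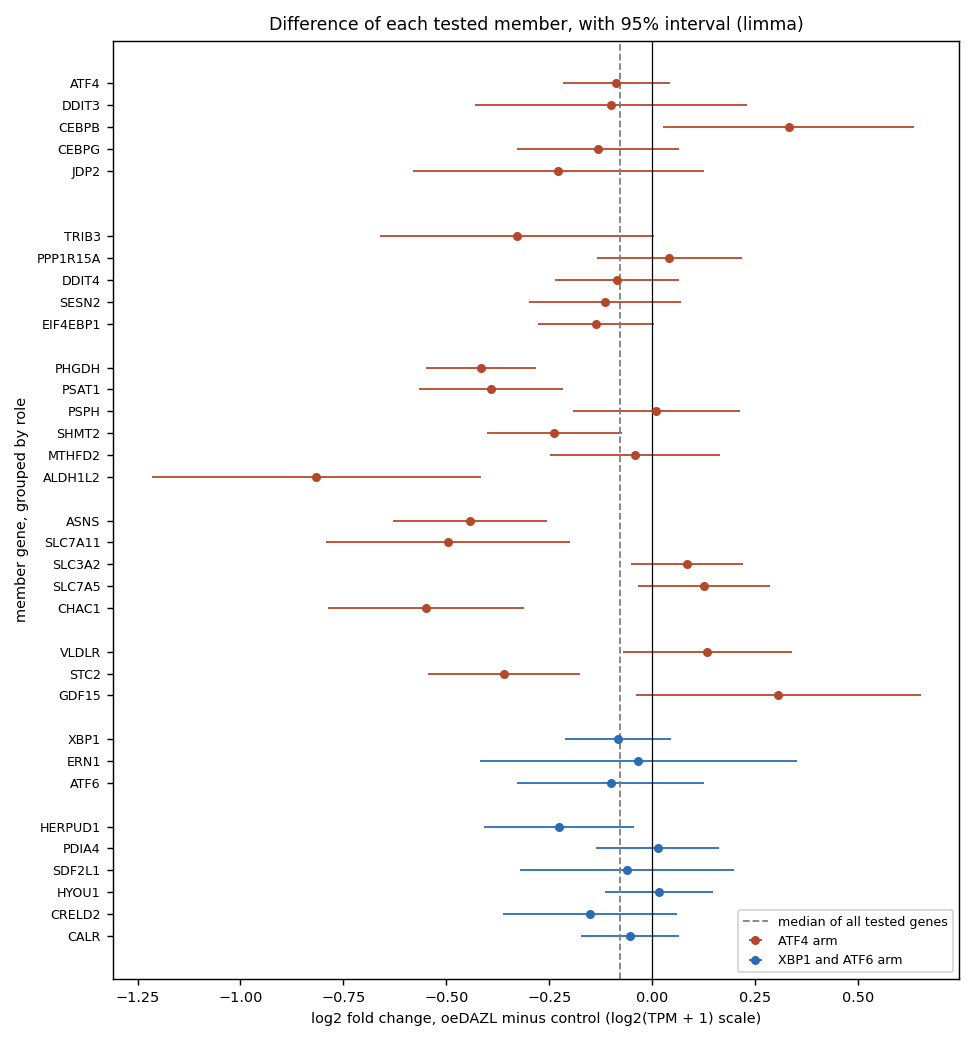
Log2 difference of each of the 33 tested members, oeDAZL minus control on the log2(TPM + 1) scale, with its 95% interval from limma (n = 2 libraries per group), in red for the ATF4 arm and blue for the XBP1 and ATF6 arm. The intervals of PHGDH, PSAT1, ALDH1L2, ASNS, SLC7A11, CHAC1 and STC2 lie to the left of both 0 and the median of all genes (-0.078, dashed), and that of ERN1 is among the widest.

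The 3 genes that sense ER stress or pass it on did not pass the unadjusted test. XBP1, the factor activated by splicing, was at 158 and 162 TPM in control and at 152 and 150 TPM in oeDAZL (log2 difference -0.085, unadjusted P = 0.159, and 0.016 with median-of-ratios scaling). ATF6 was at 21.5 and 19.4 TPM in control and at 18.9 and 19.0 TPM in oeDAZL (log2 difference -0.10, unadjusted P = 0.319). The groups of XBP1 and ATF6 were separate but close. ERN1, the splicing enzyme IRE1, was at 6.20 and 6.23 TPM in control and at 6.84 and 5.33 TPM in oeDAZL, so the 2 oeDAZL libraries stood on either side of the controls.

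In the ER folding and degradation group, 1 of 6 genes passed the unadjusted test as lower (16.7%), near the 15.2% of all genes. HERPUD1, an ER membrane protein of the degradation machinery (chr16:56932142-56944864), was at 47.4 and 48.4 TPM in control and at 39.0 and 42.6 TPM in oeDAZL. It was the member whose promoter held both a CARE and an ERSE-II. Its log2 difference was -0.23 ± 0.075 (limma, unadjusted P = 0.0223, adjusted p = 0.185). The unadjusted P was 0.145 with median-of-ratios scaling and 0.185 without oeDAZL replicate 1.

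PDIA4, a disulfide isomerase, was at 195 and 210 TPM in control and at 199 and 209 TPM in oeDAZL. HYOU1, a large chaperone related to HSP70, was at 124 and 127 TPM in control and at 127 TPM in both oeDAZL libraries, and its interval of -0.11 to 0.15 was among the narrowest. For both genes the groups overlapped and the mean difference was 1.13% of the control level or less. SDF2L1, a chaperone cofactor, was at 41.2 and 46.6 TPM in control and at 45.6 and 38.5 TPM in oeDAZL, again overlapping.

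CRELD2, a secreted ER stress protein, was at 47.1 and 44.01 TPM in control and at 38.5 and 43.5 TPM in oeDAZL (log2 difference -0.15, unadjusted P = 0.129). CALR, calreticulin, a calcium-binding chaperone and the most abundant member, was at 942 and 960 TPM in control and at 914 and 917 TPM in oeDAZL. Both genes had the oeDAZL values below the control values, and for CALR the log2 difference of -0.054 turned to 0.047 with median-of-ratios scaling.

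Set side by side, the ATF4 arm had 8 of 24 tested genes lower (33.3%) and 1 higher (4.17%) at an unadjusted P of at most 0.05, and the XBP1 and ATF6 arm had 1 of 9 lower (11.1%) and none higher, against 15.2% and 5.02% of all genes. The members were chosen with earlier results of these data known, so these shares describe the genes and test nothing. Of all genes, 38.4% had both oeDAZL values below both control values and 16% had both above. In the ATF4 arm these counts were 15 and 5 of 24, and in the XBP1 and ATF6 arm 5 and 0 of 9. The median log2 difference was -0.12 in the ATF4 arm, -0.062 in the XBP1 and ATF6 arm and -0.078 over all genes. The difference of the medians of the 2 arms was -0.061 and has no test, and without oeDAZL replicate 1 it was 0.00062. The 1 lower gene of the XBP1 and ATF6 arm was HERPUD1, whose promoter also held a CARE. With HERPUD1 moved to the ATF4 arm the difference of the medians was -0.074, and with arms of targets only it was -0.076. Within the ATF4 arm, the median was -0.31 for serine and one-carbon metabolism and -0.44 for asparagine, transport and glutathione. It was -0.10 for the transcription factors, -0.11 for feedback and growth control and 0.13 for the secreted and surface genes.

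The scaling of the libraries moved these counts. With median-of-ratios scaling, which moved the median of all genes to 0.013, the ATF4 arm had 7 genes lower and 5 higher (CEBPB, SLC3A2, SLC7A5, VLDLR and GDF15), against 8.20% and 11.2% of all genes, and the XBP1 and ATF6 arm had none in either direction. Without control replicate 1, 13 ATF4-arm genes were lower and none higher, against 10.3% and 4.67% of all genes. Without control replicate 2 there were 9 and 4, against 19.7% and 8.04% of all genes. PHGDH, PSAT1, ASNS, CHAC1 and STC2 had an unadjusted P of at most 0.05 under each of the 8 alternatives that used all 4 libraries, and ALDH1L2 under each of the 7 that kept it. These 6 genes also had it with each library left out in turn, but there 1 group is a single library whose spread is assumed to be that of the other group.

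**Figure D3:**
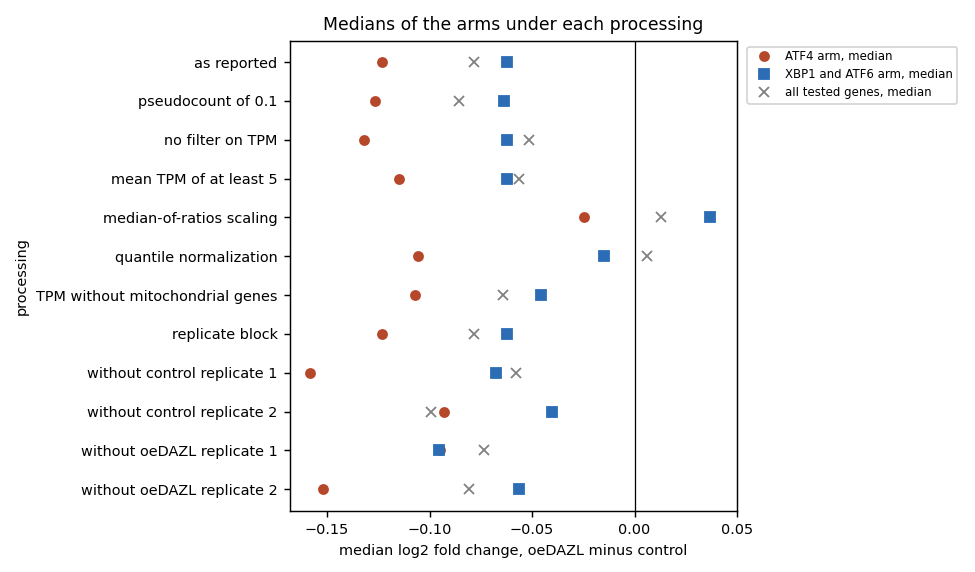
Median log2 difference of the ATF4 arm (red circles), the XBP1 and ATF6 arm (blue squares) and all tested genes (grey crosses) under the reported processing and 11 alternatives. The ATF4 arm was at -0.12 as reported and -0.025 with median-of-ratios scaling, and the markers of the arms coincide without oeDAZL replicate 1.

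Other genes of the same responses were read from lists of 80 genes, of which 77 were tested. These lists too were chosen with earlier results of these data known, so their shares are description only. None of the 13 genes for eIF2, its kinases, its exchange factor eIF2B and the phosphatase subunit PPP1R15B passed the unadjusted test, and their log2 differences ran from -0.13 to 0.14. EIF2AK3 (PERK), the ER kinase, was at 19.4 and 21.4 TPM in control and at 18.7 and 21.3 TPM in oeDAZL. EIF2AK4 (GCN2), the amino acid kinase, was at 42.0 and 49.0 TPM in control and at 43.0 and 40.8 TPM in oeDAZL. Both pairs of groups overlapped.

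Of 17 further ATF4 targets tested, 5 were lower (29.4%) and 1 was higher (5.88%) at an unadjusted P of at most 0.05, against 15.2% and 5.02% of all genes, with a median of -0.16. FGF21, a hormone, was listed at 0 in all 4 libraries. PCK2, the mitochondrial phosphoenolpyruvate carboxykinase, was at 62.4 and 64.6 TPM in control and at 50.9 and 47.6 TPM in oeDAZL (log2 difference -0.36, unadjusted P = 0.00171, adjusted p = 0.0949 in limma). The amino acid transporters SLC6A9 (glycine, log2 difference -0.33) and SLC7A1 (cationic amino acids, -0.25) were also lower, and SLC38A2 (neutral amino acids) was higher by 0.13. The other two lower genes, SLC1A5 and PYCR1, are named because the count is small and were chosen after their values were seen. ATF3, a factor induced by ATF4, was at 76.6 and 87.3 TPM in control and at 83.0 and 82.5 TPM in oeDAZL, inside the control range. Among 12 cytosolic tRNA synthetases, CARS1 (log2 difference -0.26) and AARS1 (-0.20) were lower and none was higher.

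Of the other ER chaperones, 3 of 16 tested were higher (18.75%) and 1 was lower (6.25%) at an unadjusted P of at most 0.05, against 5.02% and 15.2% of all genes. CANX, calnexin, the membrane-bound partner of CALR in glycoprotein folding, was at 265 and 272 TPM in control and at 354 and 346 TPM in oeDAZL. The groups were well separated, with the oeDAZL mean 30.5% higher and a log2 difference of 0.38 ± 0.0504 (limma, unadjusted P = 0.000239, adjusted p = 0.0885). DNAJB11 (log2 difference 0.27), a cochaperone, and PDIA3 (0.19), the disulfide isomerase that works with calnexin and calreticulin, were the other two. CRELD1 was the lower gene (-0.25), and the median of the 16 chaperones tested was 0.034.

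HSPA5 (BiP), the chaperone that holds the ER sensors inactive and a standard readout of ER stress, was at 461 and 440 TPM in control and at 425 and 422 TPM in oeDAZL. Its log2 difference was -0.089 (unadjusted P = 0.134) and turned to 0.012 with median-of-ratios scaling. HSP90B1 (GRP94) was at 859 and 889 TPM in control and at 902 and 904 TPM in oeDAZL, a log2 difference of 0.046 (unadjusted P = 0.391). DNAJB9, an XBP1 target, was at 17.0 and 17.3 TPM in control and at 17.4 and 19.0 TPM in oeDAZL (log2 difference 0.078).

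Of 14 genes of ER degradation and translocation, OS9 was lower (log2 difference -0.14) and none was higher. Of the 5 relatives and proteases of ATF6, CREB3L1 (-0.29), CREB3L2 (-0.26) and MBTPS1 (-0.25), the first protease that cuts ATF6, were lower. Over the 77 tested genes, 12 were lower (15.6%) and 4 higher (5.19%), close to the 15.2% and 5.02% of all genes. With median-of-ratios scaling 1 (PCK2) was lower and 13 were higher, against 8.20% and 11.2% of all genes.

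Markers of other cell types differed between the libraries as well. Bulk RNA cannot tell fewer cells of a type from less RNA per cell, and the part of cell mixture in the values above was not tested. The counts that follow are of the markers whose mean reached 1 TPM, at an unadjusted P of at most 0.05 that 15.2% of all genes passed as lower and 5.02% as higher, and the sums are over the whole lists. Of 5 tested pluripotency markers (of 7) 2 were higher in oeDAZL, POU5F1 (log2 difference 0.79) and TDGF1 (0.82), and none passed as lower. The other 3, SOX2 (-0.60), LIN28A (-0.14) and DPPA4 (-0.11), had both oeDAZL values below both control values, as had 38.4% of all genes. The summed levels were 495 to 546 TPM in control and 477 to 497 TPM in oeDAZL. Of 7 mesenchymal markers, all tested, 3 were lower and none higher, with sums of 3520 and 3725 TPM in control and 3162 and 3123 TPM in oeDAZL. Of 7 amnion and trophoblast markers, all tested, 3 were lower and none higher, with sums of 2398 to 2629 TPM in control and 2397 to 2446 TPM in oeDAZL. Of 4 tested endoderm and liver markers (of 7) 1 was lower and none higher, with sums of 152 and 256 TPM in control and 155 and 195 TPM in oeDAZL. Of 4 tested neural markers (of 6) 1 was lower (PAX6) and 1 higher (NES, log2 difference 0.52). The neural sums were 448 and 585 TPM in control and 642 and 696 TPM in oeDAZL. COL3A1 (mesenchymal, log2 difference -1.25), CGA (trophoblast, -1.18), AFP (endoderm, -1.04) and PAX6 (-1.30) also passed the fold change of at least 2, as did 0.563% of all genes as lower. No marker passed it as higher. On the same scale no member passed it, the largest fall being -0.82 (ALDH1L2). COL3A1 also had an adjusted p of 0.0344 in limma. Control replicate 1 was highest for AFP (36.3 and 13.1 TPM in control, 8.91 and 11.6 TPM in oeDAZL). The same held for PAX6 (3.83 and 1.14 TPM in control, 0.0967 and 0.558 TPM in oeDAZL). In these lists VIM (mesenchymal, log2 difference 0.19), KRT7 (trophoblast, 0.14), FOXA2 (endoderm, 0.094) and NES went the other way. Each had both oeDAZL values above both control values, as had 16% of all genes, but only NES passed the unadjusted test. None of 6 tested primordial germ cell markers (of 8) passed the unadjusted test in limma. Their summed level was 63.7 to 71.2 TPM in control and 58.1 to 63.7 TPM in oeDAZL, and DDX4, a defining marker of later germ cells, was listed at 0 in all 4 libraries.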

How the data were processed

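The values are TPM as deposited by the authors, in a column for each library. Reads were trimmed with Trim Galore (0.6.4 in the submitters' processing notes; the study's methods name another version). As both sources give it, they were mapped to hg38 with HISAT2 2.1.0 and quantified with StringTie 2.1.4, and the methods add that uniquely mapped reads alone were kept. The annotation release is not given in the sources used here. Of 65003 entries, 45 Y-chromosome pseudoautosomal copies and 18 repeated entries were left out; for a repeated symbol the entry of highest mean was used. TPM is not a count, so limma 3.58.1 (R 4.3.3; lmFit and eBayes with trend, no covariates) replaced the count-based test of the study's methods, on log2(TPM + 1) of genes whose mean reached 1 TPM. The script was tested on simulated data. Depth is unknown, and 2 libraries per group limit the precision. Coordinates are those of GENCODE 44 (GRCh38), to which all 34 members were matched by symbol, and promoters are those of RefSeq. Alternatives were the pseudocount, the filter, 2 scalings, removal of mitochondrial genes, the replicate number as a block, eBayes without trend, each library left out, HERPUD1 in the other arm and arms of targets only. A fold of mean TPM with no pseudocount was added after seeing the data. The members and lists were chosen with earlier results of these data known. The text names all 34 members, DAZL, up to 3 rises and 3 falls of largest size at an unadjusted P of at most 0.05 in each further list, and HSPA5, HSP90B1, EIF2AK3, EIF2AK4, ATF3 and DNAJB9. Cell type markers are given as counts, sums and those at 0, and some are also named. SLC1A5, PYCR1, FGF21, POU5F1, TDGF1, SOX2, LIN28A, DPPA4, COL3A1, CGA, AFP, PAX6, NES, VIM, KRT7 and FOXA2 were named after their values were seen.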

Additional observations from a re-analysis of the deposited data

How the results depend on the processing

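On a log scale no member passed the fold change of at least 2 with P of at most 0.05 under the alternatives run (ALDH1L2 reached -0.99 with a pseudocount of 0.1). On mean TPM with no pseudocount, an alternative chosen after seeing the data, 1 member (ALDH1L2) passed as lower and none as higher. With a library left out, 1 group is a single library assumed to vary like the other group. The smallest adjusted p of a member ran from 0.0352 without control replicate 2, where 673 genes passed, to 0.322 with no filter. The count of lower ATF4-arm genes (8) was 6 to 13 with single libraries left out, and the count of higher ones (1) was 0 with no filter or without trend, 5 with median-of-ratios scaling, 2 under quantile normalization and 0 to 4 with single libraries left out. The count of lower XBP1 and ATF6-arm genes (1) was 0 with either scaling or without trend and 0 to 1 with single libraries left out. The further lists (12 lower, 4 higher) had 1 and 13 with median-of-ratios scaling, 6 and 2 without trend, and 4 to 12 and 2 to 9 with single libraries left out. The median of the ATF4 arm (-0.12) was -0.025 with median-of-ratios scaling. That of the XBP1 and ATF6 arm (-0.062) was 0.037 with median-of-ratios scaling, -0.015 under quantile normalization, -0.046 without mitochondrial genes and -0.095 to -0.040 with single libraries left out. The difference of the medians ran from -0.096 to 0.00062 with single libraries left out. Of all genes, 8.20% were lower and 11.2% higher with median-of-ratios scaling, and 9.07% and 8.40% under quantile normalization. These shares were 13.9% and 3.39% without trend and 9.04% and 3.26% with no filter. The cause of the shifts between settings was not tested.

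With the replicate number as a block, the ATF4 arm had 8 genes lower and 1 higher and the XBP1 and ATF6 arm 1 lower. Of all genes, 12.6% were lower and 4.02% higher with the block. Same-numbered libraries did not deviate together (correlation -0.10) and share only a number. The further lists had 8 lower and 3 higher with the block.

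Over 54 named genes and 647 alternative values, 536 kept direction and side of the threshold, 66 lost P of at most 0.05, 20 gained it and 25 changed sign, all of genes that had not passed. With median-of-ratios scaling the sign changed for ATF4 (0.014), DDIT4 (0.015), MTHFD2 (0.058), XBP1 (0.016), ERN1 (0.053), SDF2L1 (0.037), CALR (0.047), EIF2AK3 (0.070) and HSPA5 (0.012), and with quantile normalization for ERN1 (0.10) and EIF2AK3 (0.063). With single libraries left out the sign changed for DDIT3 (-0.23 to 0.033), PPP1R15A (-0.025 to 0.11), PSPH (-0.064 to 0.083), MTHFD2 (-0.15 to 0.068), ERN1 (-0.19 to 0.12), PDIA4 (-0.040 to 0.065), SDF2L1 (-0.18 to 0.056), HYOU1 (-0.00064 to 0.033), EIF2AK3 (-0.11 to 0.062) and ATF3 (-0.077 to 0.11).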
